A study of Mus musculus with 31 samples.

Results

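Smooth muscle contractile genes were followed in colon of mice given the colitis-associated cancer protocol, with or without the food additive E171. The 10 genes were Acta2, Actg2, Myh11, Tagln, Cnn1, Smtn, Lmod1, Des, Synm and Synpo2, and every probe that the array files name for them was used. These were 22 of the 56605 non-control probes, and all 22 passed the filter on dim signals, so the genes made up 10 of the 19797 genes tested. No probe of the genes was saturated on any array.

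All mice were BALB/c, were 4 to 6 weeks old at the start and received 1 injection of azoxymethane (AOM) 1 week before the exposure, followed by 2% dextran sodium sulphate (DSS) in the drinking water during the first 5 days. The control mice (CRC) had water by gavage, and the exposed mice (CRC + E171) had 5 mg/kg body weight/day of E171, food-grade titanium dioxide, by gavage on 5 days per week. Distal colon was taken after 2, 7, 14 and 21 days of exposure and hybridised to 1-colour arrays. There were 8 groups of 4 mice each, 2 of either sex, apart from CRC at 21 days with 3 (male 1, female 1 and female 2), and 1 array per mouse, in all 31. AOM and DSS were common to both treatments, and no array of untreated colon was used here. A comparison of CRC + E171 with CRC therefore addresses E171 on top of a colon injured by AOM and DSS, and the comparisons between days address the time since the start of DSS, with the mice of 2 days still on DSS.

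Smooth muscle contracts when calcium entry leads to phosphorylation of the myosin light chain and myosin filaments pull on actin filaments. In the colon these filaments fill the cells of the muscularis propria, with its circular and longitudinal layers, and of the thinner muscularis mucosae, and actin is also made by vessel walls and activated fibroblasts. Many genes of the contractile apparatus are driven through CArG boxes, which bind serum response factor (SRF) together with its coactivator myocardin. RNA here came from whole pieces of tissue, in which fewer muscle cells and less RNA per cell cannot be told apart.

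A probe each of the actin filament, the myosin filament and their regulators is shown, since the values below are the signals of such probes. They are given 5′ to 3′, from the array design, with positions on mm9 that can span an intron. The Acta2 probe lies at chr19:34322995-34326249 on the minus strand in the coding sequence of smooth muscle alpha-actin. The probe of Myh11, the smooth muscle myosin heavy chain, lies at chr16:14202190-14202249 on the minus strand, and that of Cnn1, calponin, at chr9:21909945-21910166 on the plus strand.
Acta2: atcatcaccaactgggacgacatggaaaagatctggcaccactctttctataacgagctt
Myh11: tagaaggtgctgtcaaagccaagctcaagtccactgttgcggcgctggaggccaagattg
Cnn1: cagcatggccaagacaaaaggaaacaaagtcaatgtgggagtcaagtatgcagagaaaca

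Promoter windows from RefSeq (GRCm38.p6), 250 bases before to 50 after the start, were matched by symbol for 7 of the 10 genes, namely Acta2, Cnn1, Des, Synm, Smtn, Lmod1 and Synpo2. The CArG box, CCNNNNNNGG with all 6 middle bases A or T, read on both strands, was found in 0 of these 7 windows and in 1.63% of 32851 windows. When 5 of the 6 middle bases had to be A or T, a match was found in 2 of the 7 and in 9.98% of all windows. These matches are shown in capitals within the 250 bases before the start of Acta2 (chr19:34255374-34255623, minus strand) and within the 60 bases farthest from the start of Synm (chr7:67759933-67759992, minus strand).
Acta2: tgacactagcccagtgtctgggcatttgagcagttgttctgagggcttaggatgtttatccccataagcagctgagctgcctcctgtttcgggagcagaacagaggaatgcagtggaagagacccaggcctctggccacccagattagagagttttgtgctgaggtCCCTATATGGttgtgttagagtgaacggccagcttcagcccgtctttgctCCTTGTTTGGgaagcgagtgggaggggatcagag
Synm: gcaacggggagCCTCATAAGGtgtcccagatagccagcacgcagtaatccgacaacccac
Acta2 held its matches at -84 to -75 and at -34 to -25 from the start, and Synm held one at -239 to -230. A match is a run of letters and not a measured binding site.

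Several arrays had high levels of genes that mark other tissues, or low levels of genes that mark the colon, and each comparison of E171 with CRC at 2, 7, 14 or 21 days includes at least 1 of them. The signal at the 75th percentile of an array ranged from 1717 to 6536, and 67.4% to 78.9% of the probes were well above background. For each list of marker genes a median of the log2 levels, less the gene means, was taken per array, and 11 of the 31 arrays lay at least 4 from 0 in at least 1 list. Pancreatic acinar genes such as Cpa1 and Pnlip (7 of 8 measured) were at 5.44 to 10.1 in CRC 2 days male 2, CRC 7 days female 1 and male 2, CRC + E171 2 days female 2 and CRC + E171 21 days female 2. In those 5 arrays the median of the contractile genes lay between -0.81 and -0.03. Squamous epithelial genes such as Krt5 and Krt14 (6 of 8 measured) were at 7.25 in CRC 7 days male 1, at 6.34 in CRC 21 days female 1 and at 4.79 in CRC + E171 14 days male 2. CRC 7 days male 1 also held skeletal muscle genes (12 of 12 measured) at 6.91. Genes of mature colonocytes (4 of 4 measured) were at -8.26 in CRC 7 days male 1, at -5.32 in CRC 7 days male 2 and at -5.46 in CRC + E171 14 days male 2. The Hox genes of the distal colon (4 of 4 measured) were at -7.19 in CRC + E171 7 days female 2, at -5.96 in CRC + E171 14 days female 1 and at -6.95 in CRC + E171 14 days female 2, against the label of distal colon. Arrays of female 2 after 7 and 14 days of E171 were the most alike of all 465 pairs, with r = 0.73 over the probes against 0.57 for the next pair. CRC 14 days male 2 had a female level of Xist, against its label. Several comparisons below are therefore also given without some of these arrays.

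**Figure D1:**
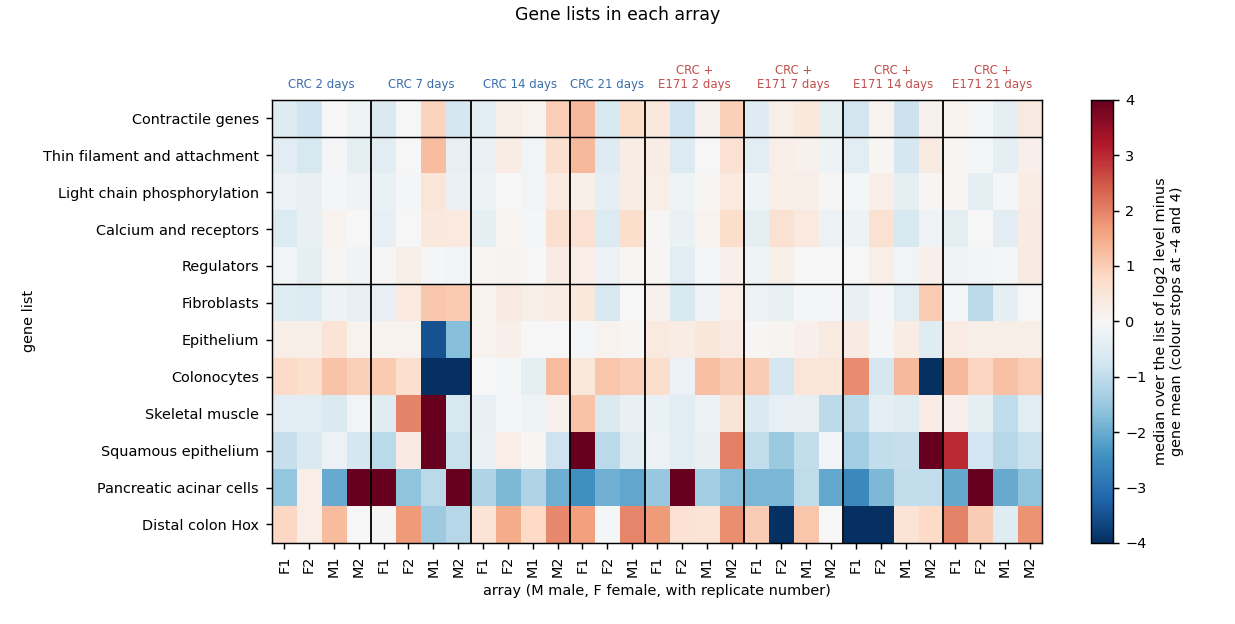
Median over each gene list of the log2 level minus the gene mean (colour), by array (x axis) and list (y axis), with the contractile genes on top. The darkest cells mark the 11 arrays with other tissue or region markers, among them the 5 with pancreatic acinar genes at 5.44 or above.

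The contractile genes differed more between mice of a group than the groups differed from each other. Levels are log2 of the processed signal relative to the 75th percentile of the array, so 0 marks that percentile, and they do not compare between genes. The median over the genes, each centred on its mean, ran from -0.87 in CRC + E171 14 days male 1 to 1.30 in CRC 21 days female 1, a span of 2.17 or 4.49-fold, while its SD within groups was 0.60. The group means of this median were -0.37, -0.10, 0.24 and 0.47 in CRC and 0.18, -0.06, -0.32 and 0.02 in CRC + E171 after 2, 7, 14 and 21 days.

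**Figure D2:**
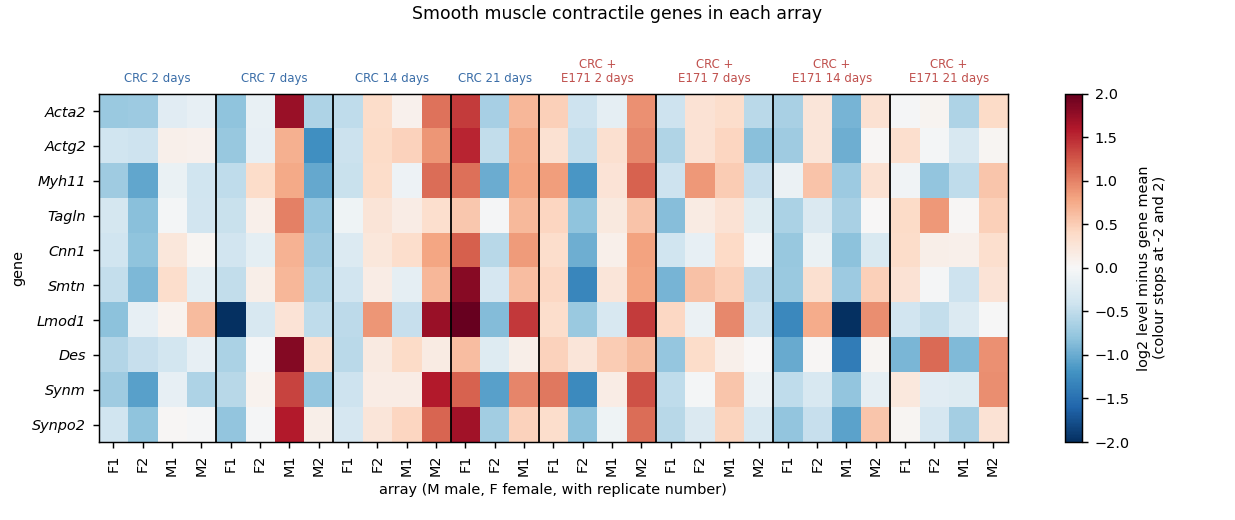
Log2 level minus the gene mean (colour, stopping at -2 and 2) of the 10 contractile genes (y axis) in each of the 31 arrays (x axis). Whole columns share a colour, as in CRC 21 days female 1 with a median of 1.30, and columns of both colours stand within most groups.

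The actins and the myosin form the filaments themselves. Acta2 ranged from 0.43 to 3.08 over the arrays, with its lowest group mean in CRC 2 days (0.89 ± 0.31, SD, n = 4) and its highest in CRC 21 days (1.82 ± 1.05, SD, n = 3). Actg2, gamma-enteric actin, the actin typical of visceral muscle, ranged from 3.19 to 5.95, with group means from 4.06 ± 0.84 in CRC 7 days to 5.02 ± 1.02 in CRC 21 days. Myh11, the motor, ranged from 0.49 to 2.84, with group means from 1.09 ± 0.39 in CRC 2 days to 1.96 ± 1.13 in CRC 21 days. For all 3 the CRC 21 days group was thus highest and also among the widest, since female 2 had 0.69, 3.93 and 0.66 there while female 1 had 2.75, 5.95 and 2.76.

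The actin-binding proteins set the stiffness and activity of the filaments. Tagln, transgelin, ranged from 5.22 to 7.08, with group means from 5.66 ± 0.33 in CRC 2 days to 6.50 ± 0.35 in CRC + E171 21 days. Cnn1, which restrains the myosin motor, had group means from 3.31 ± 0.33 in CRC + E171 14 days to 4.31 ± 0.93 in CRC 21 days. Smtn, smoothelin, a marker of fully contractile muscle, had group means from 2.16 ± 0.53 in CRC 2 days to 3.17 ± 1.08 in CRC 21 days. Lmod1, leiomodin, which starts new actin filaments, had group means from -3.97 ± 0.98 in CRC 7 days to -2.38 ± 1.63 in CRC 21 days. Lmod1 was the gene with the widest spread of the 10 and Tagln the one with the least, with SDs within groups of 1.03 and 0.47, above those of 90.7% and 54.0% of all genes, whose median was 0.44.

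Des and Synm encode desmin and synemin, intermediate filament proteins that link the dense bodies, and Synpo2 encodes an actin-bundling protein of the dense bodies. Des had group means from -1.40 ± 0.73 in CRC + E171 14 days to -0.36 ± 0.16 in CRC + E171 2 days. Synm had group means from -0.48 ± 0.38 in CRC 2 days to 0.53 ± 0.86 in CRC 14 days, and Synpo2 from -1.13 ± 0.71 in CRC + E171 14 days to -0.20 ± 1.19 in CRC 21 days. When the 8 groups of each gene were put in order, each of the 7 steps between neighbours was smaller than the larger SD of the pair, for all 10 genes. Neighbours in such an order lie close by construction, and the highest and lowest group means differed by 0.84 (Tagln) to 1.59 (Lmod1). CRC 21 days was the highest group for 7 of the genes, and the lowest was CRC 2 days for 5, CRC + E171 14 days for 3 and CRC 7 days for the rest, Actg2 and Lmod1.

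**Figure D3:**
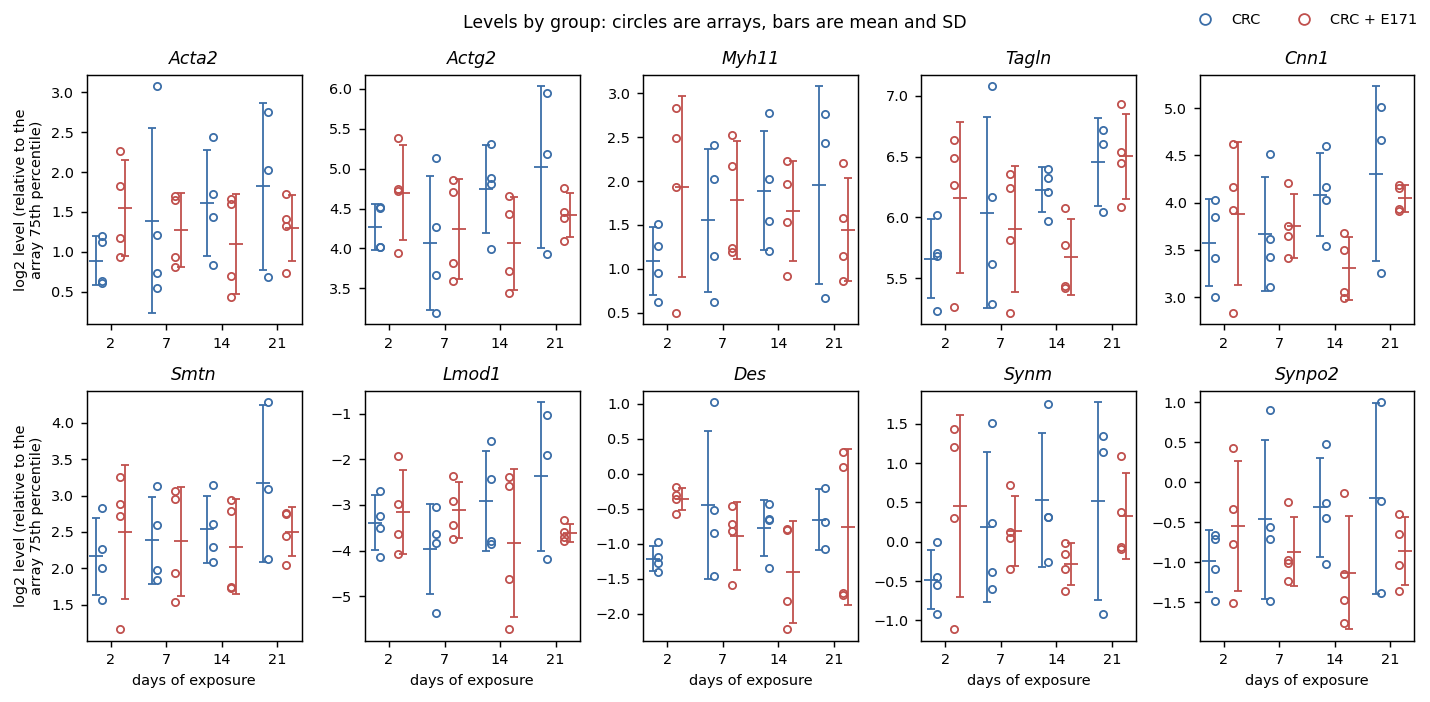
Log2 level of each gene (y axis, relative to the 75th percentile of the array) against days of exposure (x axis) in CRC (blue) and CRC + E171 (red). Circles are arrays and bars are the mean and SD, and the circles of both treatments overlap at most days in the panels.

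The 10 genes moved together from mouse to mouse. After subtracting the group means, Pearson's r between their levels over the 31 arrays ranged from 0.47 to 0.94 in the 45 pairs, with a median of 0.82, and Spearman's rho from 0.56 to 0.93, with a median of 0.81. These r are given as a description, since arrays share slides and the 75th percentile they are scaled to. Without the 2 arrays farthest from the median, CRC 21 days female 1 and CRC 14 days male 2, r ranged from 0.46 to 0.94, and without CRC 7 days male 1 from 0.41 to 0.93. Acta2 was the most typical, with a mean r of 0.85 to the other genes, and Cnn1 with Synm made the pair with the highest r. Des was the least typical, with a mean r of 0.58, followed by Lmod1 with 0.71.

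**Figure D4:**
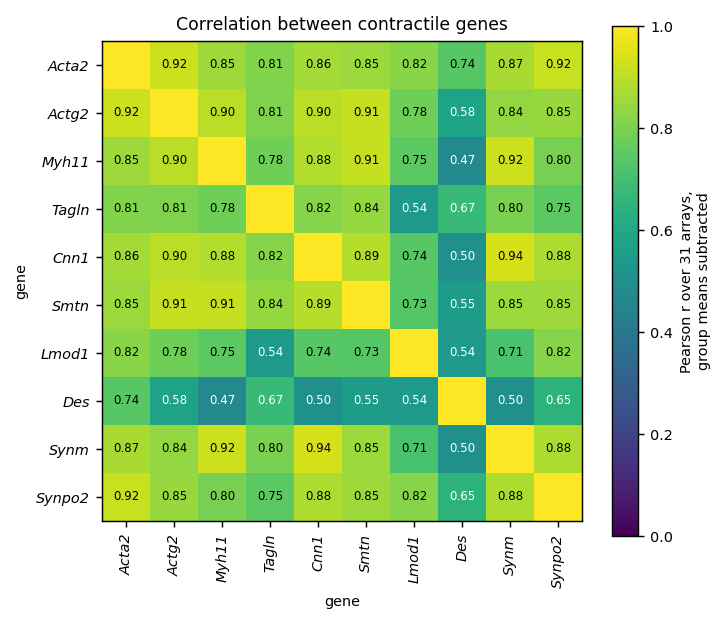
Pearson's r between the log2 levels of each pair of contractile genes over 31 arrays, group means subtracted, on a colour scale from 0 to 1. Values run from 0.47 for Myh11 with Des to 0.94 for Cnn1 with Synm, and the row of Des is the lowest.

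The low likeness of Des came from 1 of its 2 probes. The probe of the RefSeq transcript NM_010043 had r = 0.91 with the median of the other genes, while the probe of ENSMUST00000144894 (chr1:75358447-75358506 on mm9), well above background on 29 of 31 arrays, had r = 0.16. In CRC + E171 21 days the latter gave -6.27 in female 1, -2.16 in female 2, -5.70 in male 1 and -2.96 in male 2, whereas the former gave 2.81, 2.80, 2.29 and 3.14. Both probes thus describe different patterns, and the level of Des used here is their mean. A probe of Synpo2 that was designed on ENSMUST00000198584 had r = 0.54, and the Acta2 probe of AK033744 was well above background on 7 of 31 arrays and had r = 0.75. Both are averaged into the levels of their genes. The other probes of the 10 genes had r from 0.79 to 0.95.

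Outside the 10 genes, those with the most similar pattern, by the mean r to them over the 31 arrays, were Rbpms2 (0.869), Jph2 (0.864), Myom1 (0.861), Slc2a4 (0.851), Bves (0.850), Pnck (0.848), Popdc2 (0.847), Pdlim3 (0.846), Chrdl1 (0.845) and Dmpk (0.839). Among the 17143 genes compared the median of this mean r was 0.031 and the lowest was -0.785. Without CRC 7 days male 1, the array with skeletal muscle genes, the first and the last of these had 0.854 and 0.818.

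No contractile gene changed with E171 at an adjusted p below 0.05. A gene was called differentially expressed (DEG) at a fold change of at least 1.5 with an unadjusted p below 0.05 by limma, and adjusted p-values were taken over all genes. Of 150 values, 10 genes in 15 comparisons, 0 had an adjusted p below 0.05, 10 had an unadjusted p below 0.05 and 7 were DEGs. The lowest adjusted p was 0.346, and over 52 settings of the processing and choices of arrays it was 0.0846, for CRC at 21 against 2 days with array weights. In the F-tests over days it reached 0.079, for CRC with array weights.

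After 2 days of exposure the exposed mice had higher means of all 10 genes. Their median log2 fold change was 0.47 against 0.06 over all genes, 59.2% of which were higher. None was a DEG, where 1.72% of all genes were. Des gave -1.40 and -1.28 in females 1 and 2 and -1.19 and -0.98 in males 1 and 2 of CRC, and -0.36, -0.57, -0.31 and -0.19 in the same order in CRC + E171. All 4 exposed mice thus lay above all 4 controls, with a log2 fold change of 0.86 (SE 0.46), an unadjusted limma p of 0.0745 and p = 0.0286 in the exact permutation test, two-sided, the smallest that 4 against 4 arrays allow. For this separation of groups, and those named below, the share over all genes is not given. The probes of Des differed in size, with 0.37 for the NM_010043 probe and 1.35 for the ENSMUST00000144894 probe. Synm (0.94, SE 0.54) and Myh11 (0.85, SE 0.51) had similar estimates, but their groups overlapped. CRC + E171 2 days female 2, one of the arrays with pancreatic genes, was the lowest of its group in all 10 genes. Without that array 3 genes were DEGs, Myh11 with 1.33, Tagln with 0.80 and Synm with 1.47, where 1.65% of all genes were, and the median over the 10 was 0.79. Without CRC + E171 2 days male 2 that median was 0.27.

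After 7 days the genes did not share a direction. The median log2 fold change was -0.03 against -0.01 over all genes, 4 genes lay higher and 6 lower, and none was a DEG, although 12.4% of all genes were. The interval for Acta2, -0.12 (95% interval -1.10 to 0.87), still held changes of 1.5-fold in both directions, so that a change of that size was not detectable with these arrays. The dim AK033744 probe of Acta2 gave 0.44, and its other probes gave -0.52 to -0.09. Lmod1 had the highest estimate (0.85, SE 0.70). Without CRC 7 days male 1, where Acta2 was at 3.08 against 0.55 to 1.21 in its group and epithelial genes were at -3.47, the median was 0.38 and 4.63% of all genes were DEGs. Without CRC 7 days male 2, one of the arrays with pancreatic genes and low colonocyte genes, the median was -0.26.

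After 14 days all 10 genes lay lower in CRC + E171. The median log2 fold change was -0.66 against 0.01 over all genes, 48.5% of which were lower, and 1 gene, Cnn1, was a DEG where 6.34% of all genes were. That median was -0.41 without CRC + E171 14 days male 1 and -0.88 without CRC 14 days female 1. Cnn1 was at 3.54 and 4.03 in females 1 and 2 and at 4.17 and 4.60 in males 1 and 2 of CRC, and at 3.06, 3.67, 3.0 and 3.50 in CRC + E171. The exposed mice were lower with an overlap of both groups through female 2 of CRC + E171 and female 1 of CRC. The log2 fold change was -0.78 (SE 0.37; 1.71-fold lower), with an unadjusted limma p of 0.0436, an adjusted p of 0.609 and p = 0.0571 in the exact permutation test. Both of its probes had similar differences, -0.76 and -0.79. The call was lost without any 1 of 5 arrays, which were male 1 and female 1 of CRC + E171 and males 1 and 2 and female 2 of CRC, with unadjusted limma p between 0.0605 and 0.136.

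The other 9 genes had log2 fold changes from -0.91 (SE 0.70) for Lmod1 to -0.23 (SE 0.51) for Myh11 after 14 days. Synm (-0.82, SE 0.54), Synpo2 (-0.81, SE 0.49), Actg2 (-0.68, SE 0.43) and Tagln (-0.55, SE 0.33) were larger than their SE but not DEGs. The probes of Synpo2 differed, with -1.53 for the ENSMUST00000198584 probe and -0.91 and 0.0002 for the others. The Hox genes of the distal colon were at -6.95 to 0.79 in the exposed group and at 0.54 to 1.92 in CRC. Without the 3 arrays low in these genes, which leaves males 1 and 2 in CRC + E171, Cnn1 had -0.84 with an unadjusted limma p of 0.0887 and 0 genes were DEGs, where 3.09% of all genes were. Without the 3 arrays with squamous genes, Tagln (-0.68), Cnn1 (-0.84) and Synpo2 (-1.14) were DEGs, where 11.9% of all genes were. The part of these tissue markers in the difference was otherwise not tested.

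After 21 days 9 of the 10 genes lay lower in CRC + E171, and none was a DEG, where 2.67% of all genes were. The median was -0.51 against 0.02 over all genes, with the lowest estimate for Lmod1 (-1.23, SE 0.76) and the highest for Tagln (0.05, SE 0.35). These values rest on 3 control mice that differed widely. Smtn was at 4.29 in female 1, 2.13 in female 2 and 3.09 in male 1 of CRC, and at 2.77, 2.45, 2.05 and 2.74 in females 1 and 2 and males 1 and 2 of CRC + E171. Females 1 and 2 and male 2 of CRC + E171 lay between female 2 and male 1 of CRC, and male 1 of CRC + E171 lay below every control. Without female 2 of CRC the median was -1.12 and 4 genes were DEGs, Actg2 (-1.14), Smtn (-1.19), Lmod1 (-2.14) and Synpo2 (-1.24), where 4.50% of all genes were, and without female 1 of CRC, the array with squamous genes, the median was -0.05.

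**Figure D5:**
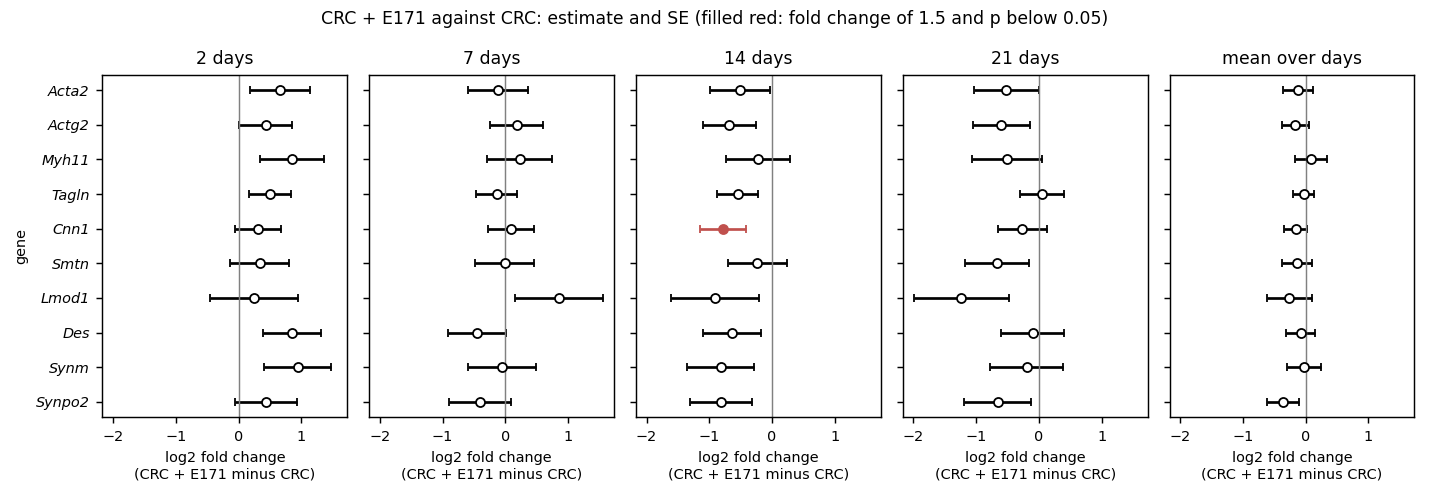
Log2 fold change of CRC + E171 over CRC (x axis) for each contractile gene (y axis) after 2, 7, 14 and 21 days and as the mean over the days, as estimate and SE. Estimates after 2 days all lie above 0 and those after 14 days below 0, and Cnn1 after 14 days is the DEG, in red.

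The mean effect over the 4 days lay between -0.36 (SE 0.25) for Synpo2 and 0.09 (SE 0.26) for Myh11, with a median of -0.13 against 0.03 over all genes. None of the genes was a DEG, where 1.79% of all genes were. That median was -0.27 without CRC 21 days female 2 and -0.02 without CRC 21 days female 1. Whether the effect of E171 differed between days was tested directly, and the unadjusted F-test p by limma ran from 0.129 for Des to 0.534 for Smtn, so that 0 of 10 genes had p below 0.05, where 6.52% of all genes did. Without CRC + E171 2 days female 2, 3 genes had an F-test p below 0.05, where 6.35% of all genes did.

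The effect of E171 at 14 days was also set against that at 2 days alone, a comparison chosen after the opposite directions at these days had been seen. Slides 2 and 6 held only CRC 2 days and CRC + E171 14 days, and slides 4 and 8 only CRC 14 days and CRC + E171 2 days. The comparison is therefore also one of the former slides with the latter, and slide and a change of the effect cannot be told apart. All 10 genes had a lower effect at 14 days, with a median difference of -1.13 against -0.04 over all genes, and 4 of the 10 were DEGs, where 5.56% of all genes were. These were Synm (-1.76, SE 0.76, unadjusted limma p 0.0287), Des (-1.49, SE 0.65, p 0.0307 by limma), Tagln (-1.05, SE 0.46, p 0.0317 by limma) and Cnn1 (-1.09, SE 0.52, p 0.0456 by limma). Their adjusted p by limma was at least 0.765. The count was 0 without CRC + E171 14 days male 1 and 7 without CRC + E171 2 days female 2, where 6.25% and 5.46% of all genes were DEGs. It was 1 without female 1 of CRC + E171 14 days, female 1 or male 2 of CRC + E171 2 days, female 2 of CRC 2 days or male 2 of CRC 14 days, where 4.06% to 6.31% of all genes were, and 2 without male 1 of CRC 14 days, where 4.83% were. Without the 3 arrays low in Hox genes, 2 of them in CRC + E171 14 days, Des alone was a DEG, where 3.92% of all genes were.

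On each slide the CRC arrays of one day lay beside the CRC + E171 arrays of another, so that within slides only the mean over 7 and 21 days and over 2 and 14 days could be estimated. In the comparisons of E171 with CRC at a single day, the groups lay on different slides, and slide and E171 cannot be told apart there. For 7 and 21 days the median log2 fold change was -0.11 and no gene was a DEG, where 4.47% of all genes were. Without CRC 7 days male 1 that median was 0.08 and 1.62% of all genes were DEGs, and without CRC 21 days female 2 it was -0.48. For 2 and 14 days it was 0.01 and no gene was a DEG, where 2.26% of all genes were. It was -0.12 without CRC + E171 2 days male 2 and 0.16 without female 2 of that group. The estimates ran from -0.46 (SE 0.37) for Synpo2 to -0.03 (SE 0.27) for Cnn1 in the former and from -0.34 (SE 0.38) for Lmod1 to 0.31 (SE 0.38) for Myh11 in the latter. The arrays of CRC and CRC + E171 always lay in different columns of the slides, and column and treatment cannot be told apart.

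In CRC the contractile genes had higher medians at 7, 14 and 21 days than after 2 days, when DSS was still given. At 7 days 8 genes were higher, with a median log2 fold change of 0.42 against 0.01 over all genes and 0 DEGs, where 13.4% of all genes were DEGs. At 14 days all 10 were higher, with a median of 0.54 against 0.01 and 0 DEGs, where 2.55% of all genes were. At 21 days all 10 were higher again, with a median of 0.83 against -0.02 and 1 DEG, Tagln, where 3.59% of all genes were, and 47.0% of all genes were higher. These 3 comparisons share the arrays of CRC 2 days, which is the lowest group for 5 of the genes. Each day of CRC also lay on slides of its own, so that slide and day cannot be told apart. Fibroblast genes had 6, 4 and 1 higher DEGs of 7 at 7, 14 and 21 days, with medians of 0.87, 0.67 and 0.16. Endothelial genes had 4 higher DEGs of 6 and vascular mural cell genes 3 of 6 at 7 days, with medians of 0.63 and 0.95, and none at 14 or 21 days. Also at 7 days, skeletal muscle genes had 10 higher DEGs of 12 (median 2.38). Epithelial genes had 8 lower of 8 (-1.43) and colonocyte genes 4 lower of 4 (-3.61). The part of these cell types in the difference was not tested.

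Tagln was at 5.71 and 5.23 in females 1 and 2 and at 6.02 and 5.68 in males 1 and 2 after 2 days of CRC, and at 6.60 in female 1, 6.04 in female 2 and 6.71 in male 1 after 21 days. All 3 later mice lay above all 4 earlier ones, by a narrow margin for female 2 over male 1. The log2 fold change was 0.79 (SE 0.35; 1.73-fold higher), with an unadjusted limma p of 0.0342, an adjusted p of 0.901 and p = 0.0571 in the exact permutation test, the smallest that 3 against 4 arrays allow. Without male 1 or female 1 of CRC 21 days or female 2 of CRC 2 days the unadjusted limma p was 0.0912 to 0.116 and the call was lost. Smtn (1.0, SE 0.50), Lmod1 (1.02, SE 0.76), Synm (1.0, SE 0.58) and Acta2 (0.93, SE 0.52) had larger estimates with wider errors.

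The size of the difference at 21 days turned on single arrays. Without female 2, which lay near the mice of 2 days, the median was 1.43 and 9 of the 10 genes, all but Des, were DEGs, where 5.99% of all genes were. Without female 1, the array with squamous genes at 6.34, the median was 0.41. Without all 3 arrays with squamous genes 0 of the 10 were DEGs, where 2.26% of all genes were. Tagln was then at 0.72, with an unadjusted limma p of 0.0534. At 7 days the median was 0.00 without male 1, the array with skeletal muscle genes, and 1.07 with 4 DEGs, Acta2, Tagln, Des and Synm, without the arrays with pancreatic genes, which leaves female 2 and male 1 after 7 days, where 18.5% of all genes were DEGs. An F-test over the days in CRC gave unadjusted limma p from 0.158 for Tagln to 0.441 for Synpo2, with 0 of 10 below 0.05, where 9.89% of all genes were.

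In CRC + E171 the median over the genes was lower at 7, 14 and 21 days than after 2 days. At 7 days 9 of the 10 genes were lower, with a median of -0.27 against -0.04 over all genes and no DEG, where 3.27% of all genes were. At 14 days all 10 were lower, with a median of -0.58 against -0.02 and 1 DEG, Des, where 9.64% of all genes were. At 21 days 8 were lower, with a median of -0.26 against -0.08 and no DEG, where 7.39% of all genes were. These comparisons share the arrays of CRC + E171 2 days, and each day again lay on slides of its own, so that slide and day cannot be told apart. Without male 2 of that group the medians at 7, 14 and 21 days were 0.003, -0.30 and -0.001, and without female 2 they were -0.59, -0.90 and -0.50. At 14 days all 4 Hox genes of the distal colon were lower DEGs, with a median of -3.91, and the colonocyte and pancreatic acinar lists had medians of -1.76 and -3.16 with 0 DEGs.

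Des was at -0.36 and -0.57 in females 1 and 2 and at -0.31 and -0.19 in males 1 and 2 after 2 days of E171, and at -1.82, -0.80, -2.22 and -0.78 in the same order after 14 days. All later mice lay below all earlier ones. The log2 fold change was -1.05 (SE 0.46; 2.07-fold lower), with an unadjusted limma p of 0.0314, an adjusted p of 0.346 and p = 0.0286 in the exact permutation test. Both probes had lower group means at 14 days, with differences of -0.82 for the NM_010043 probe and -1.28 for the ENSMUST00000144894 probe. With the RefSeq transcript probe alone Des was not a DEG, with an unadjusted limma p of 0.108, and without male 1 or female 1 of 14 days or male 1 or male 2 of 2 days that p was 0.0531 to 0.123. Without the 3 arrays low in Hox genes the log2 fold change of Des was -1.15 with an unadjusted limma p of 0.0596, and 0 of the 10 genes were DEGs, where 6.19% of all genes were. Without CRC + E171 2 days female 2 there were 4 DEGs, as Tagln (-0.79), Cnn1 (-0.93) and Synm (-1.27) joined Des, where 8.25% of all genes were. An F-test over the days in CRC + E171 gave unadjusted limma p from 0.0972 for Tagln to 0.963 for Smtn, with 0 of 10 below 0.05, where 14.6% of all genes were.

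Male mice had higher levels of all 10 genes than females when the groups were taken into account. The median log2 difference was 0.31 against -0.02 over all genes, 44.1% of which were higher in males, and 0 of the 10 genes were DEGs, where 2.98% of all genes were. Other lists differed as well, with medians of 0.48 for fibroblasts, 0.42 for vascular mural cells, 0.37 for endothelium and 0.28 for enteric neurons (1 higher DEG each). Medians were -0.38 for epithelium (1 lower DEG), 1.35 for the Hox genes and -1.06 for colonocytes (0 DEGs each). The part of these lists in the difference was not tested. Synpo2 (0.55, SE 0.23) had an unadjusted limma p of 0.0249 and an adjusted p of 0.492. Synm (0.55, SE 0.26) and Cnn1 (0.40, SE 0.17) had unadjusted limma p of 0.0401 and 0.0307, and all 3 stayed under the fold change of 1.5. Without CRC 14 days male 2, whose Xist went against its label and whose contractile median was 0.99, the differences were 0.50 for Synpo2, 0.47 for Synm and 0.37 for Cnn1, with unadjusted limma p of 0.0435, 0.0766 and 0.0504. Leaving out 1 array at a time gave 0 DEGs in 20 of 31 fits and at most 3, Synm, Lmod1 and Synpo2, without CRC + E171 14 days male 1, where 3.77% of all genes were.

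A further 41 genes of the contractile pathway, in 4 lists, showed few DEGs. Of the 10 genes of light chain phosphorylation, Ppp1r12b, the targeting subunit of myosin phosphatase, was higher by 0.72 after 2 days of E171 (SE 0.27, unadjusted limma p 0.0120). It was the single DEG among the 41 in that comparison, where 1.72% of all genes were. The same gene was higher by 0.61 in CRC at 14 against 2 days, and Prkg1, the cGMP-dependent kinase that relaxes muscle, by 1.12 in CRC at 7 against 2 days. Of the 13 genes of the thin filament and its attachment, Pgm5 was higher by 1.02 in CRC at 21 against 2 days (SE 0.49), and no other comparison had a DEG in that list. The counts among the 41 stand beside the shares of all genes, and were 4 for E171 after 7 days (12.4% of all genes), 4, 3 and 1 for CRC at 7, 14 and 21 against 2 days (13.4%, 2.55% and 3.59%), 1 and 2 for CRC + E171 at 14 and 21 against 2 days (9.64% and 7.39%) and 1 between the sexes (2.98%).

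Of the 10 genes of calcium handling and receptors, Tacr2, the neurokinin A receptor that drives colonic contraction, was higher by 1.24 after 7 days of E171 (SE 0.47, unadjusted limma p 0.0134, adjusted p 0.214). In CRC + E171 it was lower by 0.97 on the log2 scale at 21 than at 2 days (log2 fold change -0.97, SE 0.47). Cacna1c, the L-type calcium channel, was higher by 0.92 in CRC at 7 against 2 days. In CRC + E171 P2rx1, an ATP receptor, fell by 1.19 on the log2 scale at 14 against 2 days, and Itpr1, a calcium release channel, fell by 0.61 at 21 against 2 days. Chrm2, a muscarinic acetylcholine receptor, was the DEG of these lists between the sexes, with 0.97 higher levels in males (SE 0.22, unadjusted limma p 1.39e-04, adjusted p 0.121).

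Of the 8 regulators, Foxf1 and Foxf2, transcription factors of gut mesenchyme, fell by 0.96 and 0.65 after 7 days of E171, while Gata6 was higher by 0.98. In CRC at 7 against 2 days Foxf1 was higher by 0.92 and Gata6 fell by 0.87, in a comparison that shares CRC 7 days with the former. Myocd, myocardin, was higher by 1.08 in CRC at 14 against 2 days (SE 0.43, unadjusted limma p 0.0180), as was Foxf1 by 0.78. None of the 41 genes was a DEG for E171 after 14 or 21 days, for 14 against 2 days of that effect, for the mean over days, within slides, or in CRC + E171 at 7 against 2 days, and the adjusted p of every DEG named here was at least 0.121 with all arrays. Chrm2 between the sexes had an adjusted limma p of 0.0426 without the arrays low in colonocyte genes (1.15) and of 0.0984 without those low in Hox genes (1.07). Leaving out 1 array at a time kept the call of Ppp1r12b after 2 days of E171 and that of Chrm2 in all 31 fits, those of Pgm5, and of Tacr2 and Itpr1 at 21 days of CRC + E171, in 15, 13 and 12 of 31, and that of Ppp1r12b in CRC at 14 against 2 days in 26. The call of P2rx1 was kept in 28, and was lost without CRC + E171 2 days female 2 (-0.61, unadjusted limma p 0.254) or without male 1 or male 2 of 14 days. Foxf1 after 7 days of E171 was a DEG in all 31 fits, whereas Foxf2 lost its call without male 2 of CRC 7 days or without any 1 of 3 arrays of CRC + E171 7 days, and Prkg1 without male 1 of CRC 7 days or female 1 or female 2 of CRC 2 days.

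Other calls of these lists were lost without arrays that hold tissue markers. Pgm5 in CRC at 21 against 2 days was at 0.55 (unadjusted limma p 0.251) without the squamous arrays. P2rx1 in CRC + E171 at 14 against 2 days had an unadjusted limma p of 0.0909 without the squamous arrays and of 0.0561 without those low in colonocyte genes. Its log2 fold change was -1.09 in both fits, against -1.19 with all arrays. The gene stayed a DEG without the pancreatic arrays (-0.61, unadjusted limma p 0.0306) and without those low in Hox genes (-1.48, 0.0455). It was at -0.92 without all arrays with tissue or region markers, which leaves male 1 alone at the later day. In CRC + E171 at 21 against 2 days Itpr1 was at -0.35 (unadjusted limma p 0.307) and Tacr2 at -0.96 (0.0625) without the pancreatic arrays. With all arrays Itpr1 was at -0.61 and Tacr2 at -0.97, so that the estimate of Tacr2 hardly moved. Both stayed DEGs without the squamous arrays, those low in colonocyte genes or those low in Hox genes. The unadjusted limma p of Tacr2 was then 0.0376, 0.0098 and 0.0495, and that of Itpr1 0.0498, 0.0454 and 0.0281.

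The DEGs of these lists that involve CRC 7 days lay beside differences in markers of other tissues. After 7 days of E171 the 8 epithelial genes were all higher DEGs (median log2 fold change 1.25), the colonocyte genes had a median of 3.48 and 9 of 12 skeletal muscle genes were lower DEGs, with the opposite signs in CRC at 7 against 2 days (medians -1.43, -3.61 and 2.38). In CRC 7 days Tacr2 ranged from 0.80 to 3.64 and Gata6 from -1.74 to 1.22. Without the 3 arrays low in colonocyte genes, which leaves females 1 and 2 in CRC 7 days, none of the 4 was a DEG after 7 days of E171, where 2.65% of all genes were, with 0.27 for Tacr2, -0.18 for Gata6, -0.42 for Foxf1 and -0.51 for Foxf2. Nor was any of the 4 in CRC at 7 against 2 days, where 2.30% of all genes were, with 0.71 for Prkg1, 0.16 for Cacna1c, 0.37 for Foxf1 and 0.29 for Gata6. Leaving out all 11 arrays leaves female 2 alone in CRC 7 days. Foxf1 was then at -0.64, Foxf2 at -0.69, Tacr2 at -0.02 and Gata6 at -0.12 after 7 days of E171. Without the pancreatic arrays alone Tacr2 (unadjusted limma p 0.138) and Foxf2 (0.283) were not DEGs after 7 days of E171. Without the squamous arrays alone Gata6 was not one there (0.165), nor were Prkg1 (0.193), Cacna1c (0.107) and Gata6 (0.302) in CRC at 7 against 2 days.

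The lists followed the contractile genes across mice to different degrees. After subtracting the group means, the median of the contractile genes had r = 0.95 with the thin filament list over the 31 arrays, 0.89 with light chain phosphorylation, 0.81 with calcium handling and receptors and 0.73 with the regulators. Spearman's rho was 0.97, 0.90, 0.82 and 0.71. Of the lists for other cell types given here, fibroblasts and vascular mural cells both had r = 0.63, enteric neurons 0.31 and endothelium 0.20. Interstitial cells of Cajal (Kit, Ano1 and Etv1), the pacemaker cells within the muscle, had r = -0.12, epithelium -0.36 (rho -0.31) and leukocytes -0.59. The epithelial list stood at -3.47 in CRC 7 days male 1, and its r without that array is not given. No r is given for lists in which single arrays stand far apart (skeletal muscle, squamous epithelium, pancreas, colonocytes and Hox genes), and 1 further list is not reported here. The median of the contractile genes had r = 0.008 with the signal at the 75th percentile and 0.15 with the share of probes well above background.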

How the data were processed

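Colon RNA of 31 mice was measured on 1-colour Agilent arrays, and the authors deposited scanner files (Feature Extraction 10.7.3.1) with intensity values and flags of other kinds per spot, and a table of log2 values that they had normalised themselves. The submitters' processing notes name limma, and no version. From the deposited intensity values (processed signal) log2 minus the array's 75th percentile was taken, and spots of a probe were averaged. A probe was kept if, in at least 1 group, it was unflagged and well above background on at least 60% of the arrays, with a mean log2 signal of 4 or more. Of 56605 probes 42787 were kept and 34344 of these had a gene symbol. Probes of a gene were averaged into 19797 genes, fitted with limma 3.58.1 in R 4.3.3 (lmFit, eBayes, 1 model over the 8 groups), with Benjamini-Hochberg adjustment over all genes. Exact permutation tests were two-sided. The steps were tested on simulated data. The labels tell sexes and replicate numbers apart but no more about the mice, so p-values measure the spread between these arrays, whose number limits the precision.

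The 10 genes and the lists were chosen with earlier results of these data known. All 10 were named; of the other lists, up to 4 DEGs with the largest fold change per comparison were named, and the 10 genes most like the contractile genes. Alternatives were quantile normalisation, normexp background, the authors' table, other filters, probes, models and array weights, and leaving out arrays. Promoters came from RefSeq.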

Additional observations from a re-analysis of the deposited data

Results flagged for a closer look

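When the effect of E171 at 14 days was set directly against that at 2 days, 4 of the 10 contractile genes were DEGs by unadjusted p, where 5.56% of all genes were. The effect at 14 days less that at 2 days was -1.76 for Synm, -1.49 for Des, -1.09 for Cnn1 and -1.05 for Tagln on the log2 scale, with unadjusted limma p from 0.0287 to 0.0456 and adjusted p of at least 0.765. The comparison is at once one of slides 2 and 6 with slides 4 and 8, so that slide and a change of the effect cannot be told apart. The pair of days was chosen after the directions had been seen, and the F-test over all days had p below 0.05 for 0 of the 10, where 6.52% of all genes did.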

How the results depend on the processing

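Counts of DEGs among the 10 contractile genes moved with the processing and with the choice of arrays, but no member had an adjusted p below 0.05 by limma under any of the 52 settings. Leaving out the arrays with markers of other tissues or regions, and keeping probes of RefSeq transcripts only, were alternatives chosen after seeing the data. For E171 after 2 days (0 DEGs) there was 1 when only the compared groups were fitted or without the squamous or colonocyte arrays (2.82%, 1.96% and 2.18% of all genes), 3 without the pancreatic, 4 with array weights and 5 without all 11 (3.49%, 4.43% and 5.53%). After 7 days (0) there was 1 with array weights (3.44%) and 1 without the pancreatic arrays (18.5%). After 14 days (1) there were 2 with quantile normalisation (7.2%), 3 without the squamous or the colonocyte arrays (11.9% and 14.1%), 0 without the Hox arrays (3.09%) and 5 without all 11 (12.1%), and after 21 days (0) 1 with the authors' table (3.52%). For CRC at 7 against 2 days (0) there were 4 without the pancreatic arrays (median 1.07; 18.5%), and at 14 against 2 days (0) 2 with only the compared groups or array weights and 1 with scan day as a block (5.84%, 7.82% and 2.15%). For CRC at 21 against 2 days (1) there were 2 with quantile normalisation or without the pancreatic or colonocyte arrays (3.81%, 4.6% and 5.82%), 3 with the highest probe or sex as a covariate (3.85% and 4.41%), 7 with array weights (9.87%) and 0 without the squamous arrays (2.26%). For CRC + E171 at 7 against 2 days (0) there was 1 with array weights (6.13%) and 2 without all 11 (5.34%), and at 21 against 2 days (0) 1 with array weights (14%). At 14 against 2 days (1) there were 0 with normexp, the highest probe, scan day as a block, RefSeq probes or without the Hox arrays (6.14% to 9.91%), 2 with array weights or without the squamous arrays (11.2% and 13.3%), 4 without the pancreatic (9.63%) and 7 without all 11 (median -1.51; 11.1%). Between days the F-test of the E171 effect (0) gave 4 with array weights or without the pancreatic arrays (18.6% and 13.4%) and 3 without all 11 (12.6%). For 14 against 2 days that effect (4) gave 7 without the squamous or the colonocyte arrays (10.9% and 13.2%), 8 without the pancreatic (7.97%), 1 without the Hox (3.92%), 6 with array weights (11.1%) and 10 without all 11 (median -2.22; 15.7%). The F-test of days gave 5 with array weights (22.2%) and 1 without the pancreatic arrays (15.2%) in CRC (0). In CRC + E171 (0) it gave 1 with the highest probe, array weights or without the squamous, pancreatic or colonocyte arrays (13.3% to 28.1%), and 3 without all 11 (17.1%). Within slides 2 and 14 days (0) gave 1 without all 11 (3.42%), and the sexes (0) gave 2 without the Hox arrays (3.57%) and 1 without all 11 (3.6%). Leaving out all 11 leaves 1 array each in CRC 7 days (female 2) and CRC + E171 14 days (male 1), assumed to vary like the other groups. That male 1 had the lowest contractile median of all arrays (-0.87), and CRC + E171 2 days female 2, the lowest of its group, is among those left out. Counts without all 11 that involve CRC + E171 14 days thus rest on 1 low array. Apart from settings whose construction leaves out arrays, the cause was not tested.

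Leaving out 1 array at a time gave 0 to 3 DEGs for E171 after 2 days, 0 to 2 after 14, 0 to 4 after 21 days (1.65%, 4.84% and 4.50% of all genes at the higher count), and 0 to 1, 0 to 1 and 0 to 9 for CRC at 7, 14 and 21 against 2 days (22%, 2.32% and 5.99%; median at 21 days 0.41 to 1.43). It gave 0 to 4 for CRC + E171 at 14 against 2 days (8.25%), 0 to 3 for the effect between days (6.35%) and 0 to 7 for it at 14 against 2 days (5.46%), 0 to 4 and 0 to 1 for days in CRC (9.56%) and CRC + E171 (16.8%), and 0 to 3 for the sexes (3.77%). Over single genes, 2306 of 2530 values under the other settings kept their direction and side of the threshold, 121 changed sign without being called, 16 lost and 87 gained a call, and 0 called values reversed. With single arrays left out these were 4425 of 4650, 130, 39, 56 and 0. Of 15 pairs of samples with the same sex and number, 8 correlated above 0.1 and the others did not (-0.18 to 0.48), so the numbers were not taken to pair the samples. With the replicate number as a block CRC at 21 against 2 days had 2 DEGs, Tagln and Cnn1, where 5.15% of all genes were, and no other comparison fitted with the block changed its count.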

Other observations

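Adipocyte genes (Adipoq, Lep, Plin1 and Cidec), which enter no comparison above, had array medians from -3.33 in CRC + E171 14 days male 1 to 2.85 in CRC + E171 7 days female 2, with 2.80 in CRC + E171 14 days female 2. The contractile genes had medians of -0.87, 0.23 and 0.13 in these 3 arrays, and over the 31 arrays the adipocyte median had r = -0.05 with theirs (rho = -0.13). Leukocyte genes (7 of 7 measured, among them Ptprc and S100a8) ranged from -1.17 in CRC + E171 21 days male 1 to 1.55 in CRC + E171 7 days male 2, where the contractile genes were at -0.37 and -0.38.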
